A study of Sus scrofa with 9 samples.

Results

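*IL6*, *CXCL16*, *LGALS3* and *CD70* are 4 genes for inflammatory mediators that were measured in hatched blastocysts (HB) of the pig. They were chosen by gene symbol from earlier results of these data, in which they were among the largest rises after chromatin transfer or parthenogenetic activation. Each gene had 1 probe, so that they made up 4 of 7495 named genes and 4 of 23971 probes on the array. The choice rested on the same 9 arrays, and their values are therefore given as a description, with standard errors but without tests.

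HB derived by parthenogenetic activation (PA HB) or by somatic cell chromatin transfer (CT HB) were compared with HB derived in vivo (IVV HB), with 3 arrays per group. On each array the Cy5-labelled RNA of 1 pool of 5 embryos was set against a Cy3-labelled reference RNA, the same on all arrays, that pooled porcine oocytes and embryos up to day 11. PA HB came from mature oocytes activated without sperm. CT HB were oocytes without their own nucleus that received remodelled chromatin of a somatic cell. The number of donor cell lines is not given in the sources used here. Both kinds were activated with ionomycin and DMAP and cultured in mNCSU-23 medium, and their labels give a collection time of 7, with hours after fertilization in vitro as the unit, whereas the methods describe culture over days. IVV HB were recovered from inseminated gilts at 5.5 days post-insemination. Against IVV HB, origin, culture and collection time changed together and cannot be told apart. PA HB and CT HB shared activation, culture and labelled time. Between them manipulation and source of the genome changed together.

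IL6 is a secreted cytokine that signals through its receptor IL6R and the shared subunit IL6ST, with JAK kinases and STAT3 downstream. CXCL16 is made as a transmembrane chemokine, which ADAM10 and ADAM17 can release and which binds the receptor CXCR6. Galectin 3, the product of *LGALS3*, is a lectin that binds beta-galactosides on glycoproteins such as integrins and lysosomal membrane proteins. CD70 is a membrane-bound ligand of the tumour necrosis factor (TNF) superfamily, and its receptor is CD27. Cytokines, chemokines and galectins also serve in the exchange between blastocyst and endometrium around implantation.

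Levels are given as the log2 of the embryo signal over the reference signal, so that 0 marks equal signal and 1 a 2-fold excess in the embryos. Medians over all 23971 probes lay between -0.11 and -0.03 on the 9 arrays. The interquartile range of an array was wider in PA HB (0.85 to 1.03) than for CT HB (0.58 to 0.66) and IVV HB (0.55 to 0.67). For this reason the place of each gene among all named genes of the same array, as a percentile of the log2 ratios, is given as well. A percentile ranks ratios to the reference, not abundance. Each pool holds all cells of its embryos, and fewer cells of a type cannot be told apart from less RNA per cell.

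*IL6* was highest in CT HB, intermediate in PA HB and lowest in IVV HB, and its 3 groups of arrays did not overlap. The log2 ratio of *IL6* was 0.33, 0.23 and 0.06 in PA HB replicates 1 to 3. It was 1.19, 0.73 and 1.23 in CT HB, and -0.53, -1.21 and -1.43 in IVV HB. All arrays of PA HB and CT HB thus lay above the reference pool, and all of IVV HB below it. Means were 0.21 ± 0.14 in PA HB, 1.05 ± 0.28 in CT HB and -1.06 ± 0.47 in IVV HB (SD, n = 3 each). *IL6* was 2.4-fold higher in PA HB than IVV HB (log2 difference 1.26, SE 0.24) and 4.3-fold higher in CT HB than IVV HB (2.10, SE 0.24). CT HB exceeded PA HB by 1.79-fold (0.84, SE 0.24). By rank, *IL6* stood between percentiles 60.9 and 77.3 in PA HB, between 93.5 and 98.7 in CT HB and between 5.07 and 19 in IVV HB. Arrays of both PA HB and CT HB lay above those of IVV HB without overlap for 3.1% of all genes, and 0.187% had arrays that separated in this same order (CT HB over PA HB over IVV HB), and nothing is read from these shares because the gene was chosen on these values.

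Of the 3 groups, *CXCL16* was high in CT HB alone. Its log2 ratio was -0.52, -0.12 and -1.73 in PA HB, 0.68, 1.07 and 0.95 in CT HB, and -1.33, -0.50 and -1.09 in IVV HB. The CT HB arrays were the only ones above the reference, while those of PA HB and IVV HB overlapped. PA HB replicate 3 was the lowest of all 9 arrays, and PA HB had the widest spread. Means were -0.79 ± 0.84 in PA HB, 0.90 ± 0.20 in CT HB and -0.97 ± 0.43 in IVV HB (SD, n = 3 each). *CXCL16* was 3.66-fold higher in CT HB than IVV HB (log2 difference 1.87, SE 0.36) and 3.23-fold higher in CT HB than PA HB (1.69, SE 0.36). The difference between PA HB and IVV HB was 0.18 (SE 0.36), smaller than its own error, and it turned to -0.15 without PA HB replicate 2. The order of levels was therefore CT HB first, with PA HB and IVV HB not distinguished beyond their spread. Percentiles of *CXCL16* were 2.78 to 51.7 in PA HB, 95.1 to 96.9 in CT HB and 6.5 to 21.4 in IVV HB.

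*LGALS3* lay below the reference on 8 of the 9 arrays and came nearest to it in CT HB. Its log2 ratio was -1.43, -1.82 and -1.54 in PA HB, -0.40, -0.41 and 0.12 in CT HB, and -2.89, -1.99 and -1.59 in IVV HB. As for *IL6* and *CXCL16*, CT HB was above every array of the other groups (3.62% of all genes), whereas PA HB and IVV HB overlapped between -1.82 and -1.59. Means were -1.59 ± 0.20 in PA HB, -0.23 ± 0.31 in CT HB and -2.16 ± 0.67 in IVV HB (SD, n = 3 each). *LGALS3* was 3.8-fold higher in CT HB than IVV HB (log2 difference 1.92, SE 0.30) and 2.57-fold higher in CT HB than PA HB (1.36, SE 0.30). PA HB exceeded IVV HB by 0.56 (SE 0.30), and this difference was between 0.19 and 0.85 when single arrays were left out. Here too the order was CT HB first. PA HB and IVV HB overlapped in the deposited values, but lay apart by 0.04 after quantile and 0.63 after scale normalization (below). A higher *LGALS3* in CT HB is relative to those groups, since *LGALS3* stood only between percentiles 25.7 and 67.4 in CT HB, against 3.82 to 7.4 in PA HB and 1.29 to 4.08 in IVV HB.

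*CD70* was high in both kinds of embryo made in vitro. Its log2 ratio was 2.40, 1.91 and 2.68 in PA HB, 1.07, 1.94 and 1.31 in CT HB, and -0.55, 0.58 and -0.20 in IVV HB. No PA HB or CT HB array reached down to those of IVV HB. IVV HB replicate 2 was the highest of its group and the only one above the reference. Means were 2.33 ± 0.39 in PA HB, 1.44 ± 0.45 in CT HB and -0.05 ± 0.58 in IVV HB (SD, n = 3 each). *CD70* was 5.21-fold higher in PA HB than IVV HB (log2 difference 2.38, SE 0.32) and 2.81-fold higher in CT HB than IVV HB (1.49, SE 0.32).

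The order of *CD70* between PA HB and CT HB was not settled. In the deposited values CT HB lay below PA HB by a log2 difference of -0.89 (SE 0.32), and the arrays overlapped, with CT HB replicate 2 (1.94) just above PA HB replicate 2 (1.91). By rank *CD70* stood between percentiles 97.1 and 99 in PA HB and between 98.2 and 99.5 in CT HB, against 18.3 to 91 in IVV HB. After quantile normalization, which gives all arrays the same distribution, the difference of CT HB over PA HB was 0.48, with means of 2.09 in CT HB and 1.61 in PA HB. After scale normalization, which gives all arrays the same spread, it was -0.18. With each array only centred on its median it was -0.94, and the arrays of CT HB then lay below those of PA HB by a gap of 0.04.

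**Figure D1:**
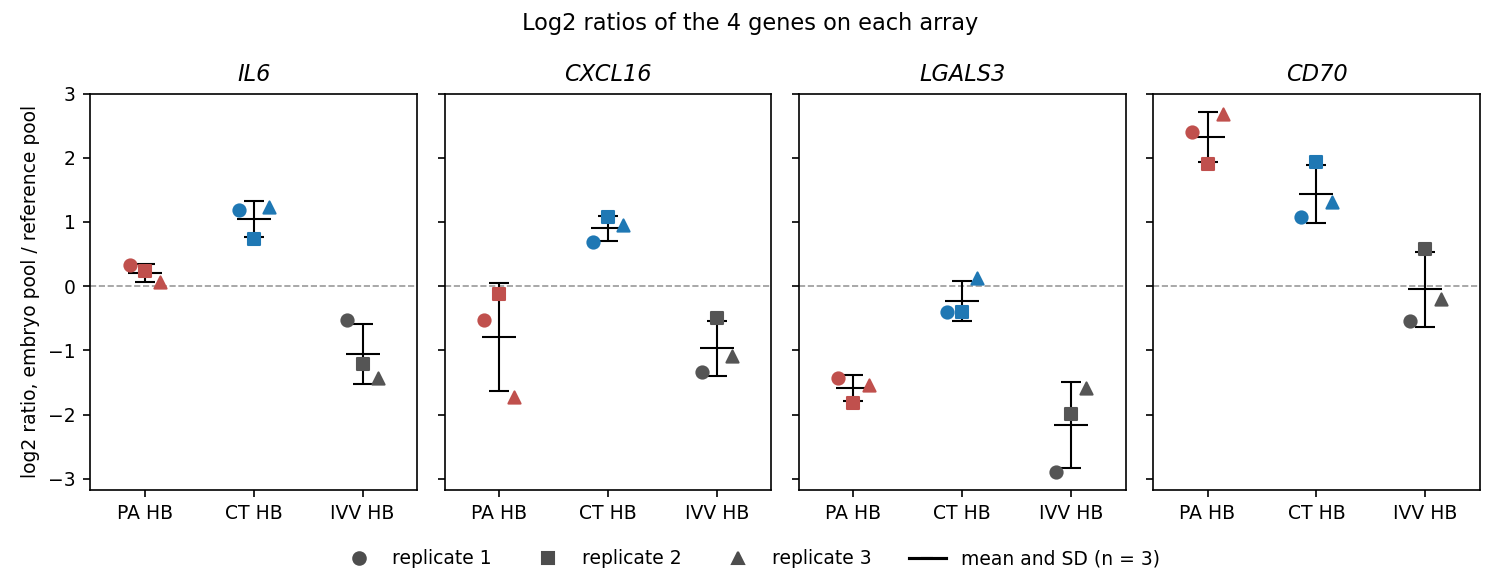
Log2 ratio of embryo pool over reference pool (y axis) of *IL6*, *CXCL16*, *LGALS3* and *CD70* on the 3 arrays each of PA HB, CT HB and IVV HB (x axis), with symbols for replicates and lines for the mean and SD. *IL6* separates all 3 groups, *CXCL16* and *LGALS3* set CT HB apart from PA HB and IVV HB, and *CD70* sets PA HB and CT HB apart from IVV HB.

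**Figure D2:**
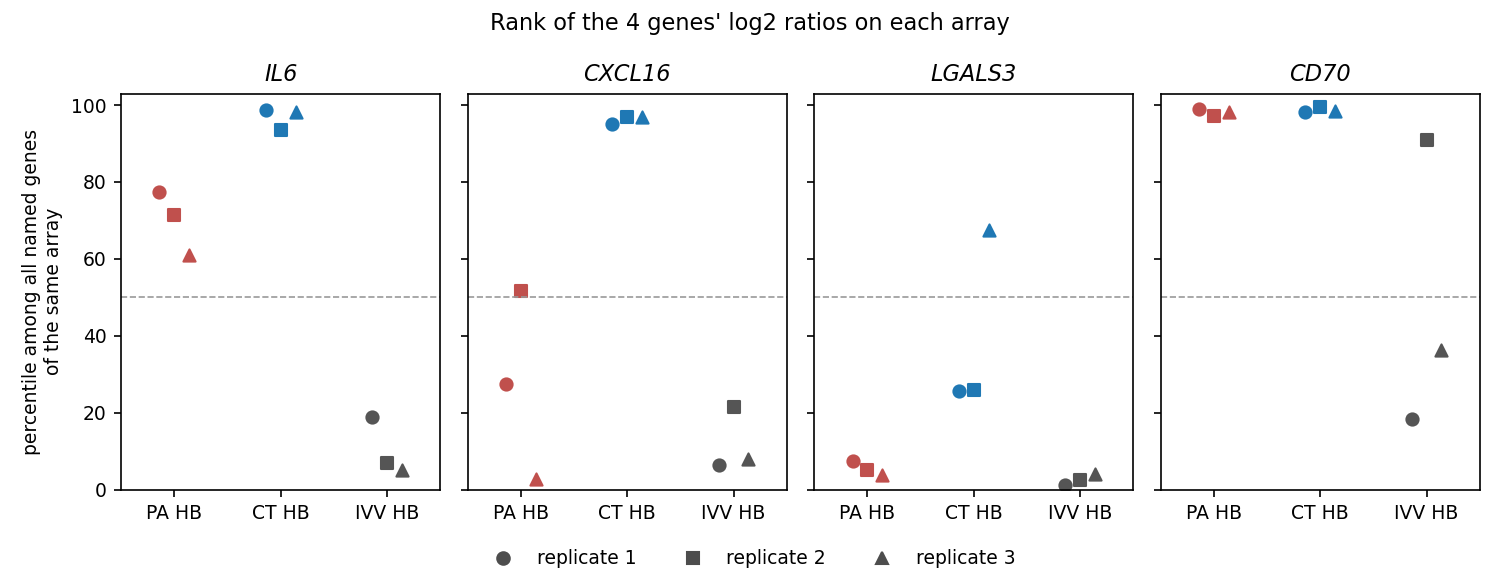
Percentile of the log2 ratio (y axis) of each gene among the 7495 named genes of the same array, by group (x axis). *CD70* is near the top on all PA HB and CT HB arrays (97.1 to 99.5), while *LGALS3* stays below 8 on all PA HB and IVV HB arrays and between 25.7 and 67.4 in CT HB.

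Set side by side, all 4 genes were higher in CT HB than IVV HB, by log2 differences between 1.49 (*CD70*) and 2.10 (*IL6*), and in each the arrays of the groups did not overlap. Over all genes, 9.79% lay higher in CT HB than IVV HB without overlap. In order of this difference among 7495 genes from the top, *IL6* was at place 8, *LGALS3* at 10, *CXCL16* at 13 and *CD70* at 26. In PA HB against IVV HB, *IL6* and *CD70* did not overlap (15.1% of all genes lay higher without overlap), and *CXCL16* and *LGALS3* did. There *CD70* was at place 10, *IL6* at 236, *LGALS3* at 835 and *CXCL16* at 2473. In CT HB against PA HB, *IL6*, *CXCL16* and *LGALS3* lay higher without overlap, against 15% of all genes. The places there were 21 for *CXCL16*, 74 for *LGALS3*, 394 for *IL6* and 7033 for *CD70*. The genes were chosen on these contrasts, so their places and shares describe the choice. Both comparisons with IVV HB use the same 3 IVV HB arrays.

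In PA HB and CT HB against IVV HB, and for *IL6*, *CXCL16* and *LGALS3* in CT HB against PA HB, the direction was the same in the deposited values and after quantile or scale normalization. The sizes moved. *IL6* in CT HB over IVV HB was 2.75 after quantile normalization, against 2.10 in the deposited values, and *CD70* in PA HB over IVV HB was 1.72, against 2.38. Scale normalization raised *LGALS3* in PA HB over IVV HB to 1.36, against 0.56 in the deposited values, and the arrays of PA HB and IVV HB then no longer overlapped (means -1.21 in PA HB and -2.56 in IVV HB). After quantile normalization the same arrays lay apart by 0.04.

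**Figure D3:**
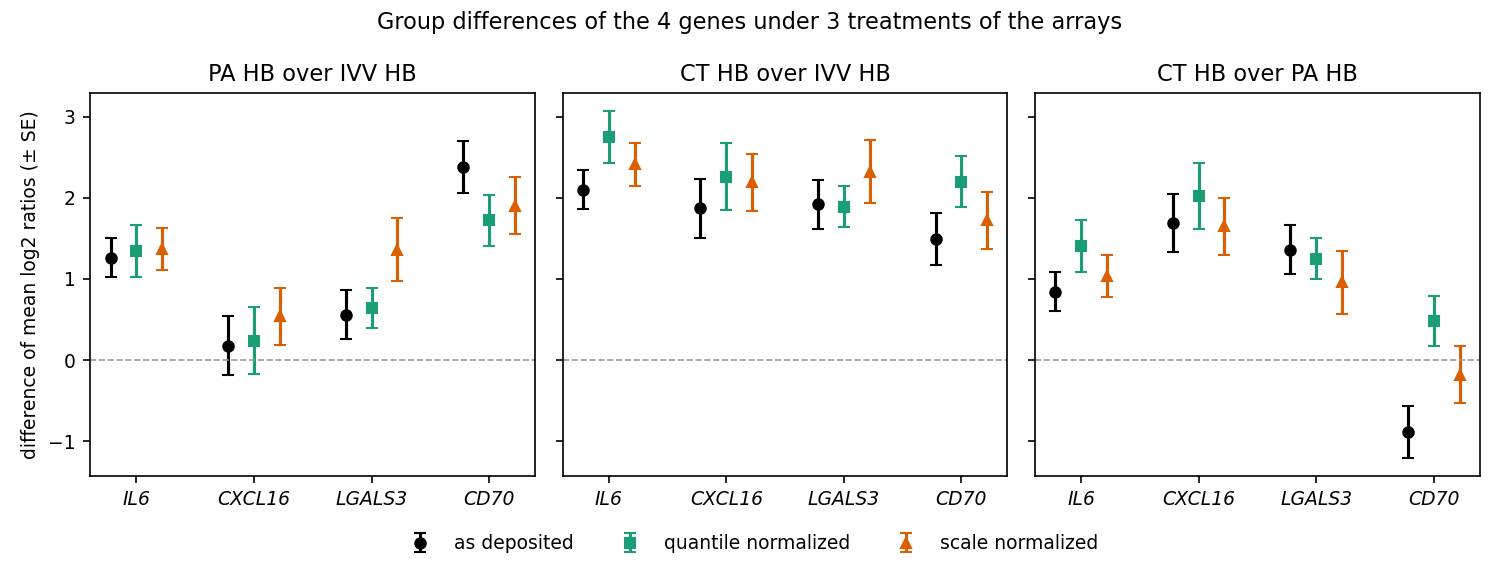
Difference of mean log2 ratios with its standard error (y axis) of the 4 genes (x axis) in PA HB over IVV HB, CT HB over IVV HB and CT HB over PA HB, for the values as deposited, after quantile normalization and after scale normalization between arrays. *CD70* in CT HB over PA HB is the one difference that changes sign (-0.89 as deposited, 0.48 after quantile normalization).

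The receptors and sheddases of these mediators were tested with limma across all genes, with p-values adjusted over all 7495 (Benjamini-Hochberg), and none of the measured ones passed an adjusted p of 0.05 and a 2-fold change in any comparison. Of these 5 genes, 1 had an unadjusted p below 0.05, *ADAM17* in CT HB over PA HB, where 28.3% of all genes did. No other did, against 28.8% of all genes in PA HB over IVV HB and 11% in CT HB over IVV HB. *IL6ST*, the signalling subunit of the IL6 receptor, averaged -0.41 ± 0.24 in PA HB, -0.65 ± 0.57 in CT HB and -0.64 ± 0.05 in IVV HB (SD, n = 3 each). *CXCR6*, the receptor of CXCL16, averaged 0.44 ± 0.19 in PA HB, 0.28 ± 0.19 in CT HB and 0.27 ± 0.19 in IVV HB. The protease *ADAM10* averaged -1.66 ± 0.42 in PA HB, -1.07 ± 0.42 in CT HB and -1.12 ± 0.65 in IVV HB. *ADAM17*, measured by 2 probes, averaged 0.27 ± 0.21 in PA HB, -0.13 ± 0.09 in CT HB and -0.04 ± 0.16 in IVV HB, and its difference of CT HB from PA HB (-0.40, SE 0.17) had the smallest limma adjusted p among these genes, 0.15. *CD27*, the receptor of CD70, averaged 0.26 ± 0.24 in PA HB, 0.11 ± 0.20 in CT HB and 0.06 ± 0.18 in IVV HB. *IL6R* and *LGALS3BP*, a galectin 3 binding glycoprotein, were not analysed here.

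The wider families of the 4 genes were described by 6 lists of 337 genes, of which 127 were measured. These lists, too, were chosen with earlier results of the same arrays known. The p-values given for their genes are therefore no independent support. In PA HB against IVV HB, 10 of the 127 were changed, 9 higher and 1 lower (7.87%, against 7.71% of all genes, 4.34% higher and 3.38% lower). The median difference was 0.15 over the 127 genes and 0.01 over all genes. In CT HB against IVV HB none of the 127 was changed by limma at both thresholds, against 0.654% of all genes (0.574% higher and 0.0801% lower), and 9 had an unadjusted p below 0.05, against 11% of all genes. In CT HB against PA HB, 12 were changed, 2 higher and 10 lower (9.45%, against 7.78% of all genes, 2.95% higher and 4.83% lower). The median difference was -0.02 in CT HB over IVV HB and -0.14 in CT HB over PA HB, beside -0.01 and 0 over all genes. The total share of changed genes in these families was thus close to that of all genes where PA HB was involved. By direction, 9 of the 10 in PA HB over IVV HB were higher in the deposited values, against 325 of 578 changed genes among all. In CT HB over PA HB 10 of the 12 were lower, against 362 of 583. Most of these genes shared a profile over the arrays (below), so their directions are not independent of each other. After quantile normalization 0 of the 127 were changed in PA HB over IVV HB, and nothing is read from the directions.

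Of 16 measured genes of the IL6 family and its JAK-STAT pathway, 1 was higher in PA HB than IVV HB (4.34% of all genes). In CT HB against PA HB 2 were lower (4.83% of all genes). *IL27RA*, the receptor of IL27, had log2 ratios of 2.35, 3.11 and 3.59 in PA HB, 0.52, 1.55 and 0 in CT HB, and 0.90, 2.31 and 1.38 in IVV HB. It was higher in PA HB than IVV HB by 1.48 (SE 0.44, limma adjusted p = 0.047) and lower in CT HB than PA HB by a difference of -2.32 (SE 0.44, adjusted p = 0.0073). *IL11*, a cytokine that also signals through IL6ST, averaged 0.25 ± 0.08 in CT HB and 1.69 ± 0.42 in PA HB, a 2.71-fold lower level in CT HB (adjusted p = 0.0095). In IVV HB it averaged 0.74 ± 0.64, and neither group differed from IVV HB at both thresholds (adjusted p of 0.056 for PA HB and 0.62 for CT HB). Median differences of this list were -0.01 in PA HB over IVV HB, -0.06 in CT HB over IVV HB and 0.01 in CT HB over PA HB.

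Of 23 measured chemokines, chemokine receptors and shedding proteases, 4 were higher in PA HB than IVV HB (4.34% of all genes). In CT HB against PA HB 3 were lower (4.83% of all genes). *AMCF-II*, a neutrophil-attracting chemokine first known from porcine alveolar macrophages, was 4.23-fold higher in PA HB than IVV HB (limma adjusted p = 0.029). *CXCR4*, the receptor of CXCL12, was 3.96-fold higher (adjusted p = 0.027), and *CCR1*, a receptor of inflammatory CC chemokines, 4.21-fold (adjusted p = 0.026). On the PA HB arrays *CXCR4* stood at 2.36, 3.63 and 3.81, on those of CT HB at 0.47, 1.24 and 0.06, and on those of IVV HB at 0.41, 2.46 and 0.98. PA HB replicate 1 thus lay below IVV HB replicate 2. In CT HB against PA HB the same 3 genes were lower by 6.61-fold for *AMCF-II*, 6.41-fold for *CXCR4* and 6.16-fold for *CCR1* (adjusted p of 0.0084, 0.0073 and 0.0088). *CCL22*, a chemokine of macrophages and dendritic cells, averaged 1.18 ± 0.95 in PA HB, 0.94 ± 0.13 in CT HB and -0.11 ± 0.26 in IVV HB. It passed in PA HB over IVV HB (difference 1.29, SE 0.37, adjusted p = 0.04), and its difference of 1.06 in CT HB over IVV HB did not pass (adjusted p = 0.27). The former held in only 1 of the 9 fits with 1 array left out. After quantile normalization it did not pass (0.93, limma adjusted p = 0.074), whereas CT HB over IVV HB did (1.48, adjusted p = 0.024). After scale normalization neither difference passed both thresholds. *CCL22* thus did not settle a contrast between PA HB and CT HB.

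Of 12 measured galectins and partners of galectin 3, none was changed against IVV HB by limma at both thresholds, with 5 at an unadjusted p below 0.05 in PA HB (28.8% of all genes) and 3 in CT HB (11% of all genes). *ITGB1*, an integrin subunit whose glycans galectin 3 can bind, was 2.35-fold higher in CT HB than PA HB (difference 1.24, SE 0.22, limma adjusted p = 0.0065). Its log2 ratios were 0.07, -0.66 and 0.04 in CT HB and -1.20, -1.52 and -1.52 in PA HB, without overlap. In this comparison 15% of all genes lay higher without overlap, and 2.95% were higher at both thresholds. *ITGB1* had the same order of CT HB and PA HB as *LGALS3*. The median difference of the list was 0.32 in CT HB over PA HB and 0.23 in CT HB over IVV HB, beside 0 and -0.01 over all genes.

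Of 20 measured TNF superfamily ligands and receptors, *TNFRSF9* (4-1BB), a costimulatory receptor of T cells, was the one changed gene. Its log2 ratios were 2.62, 3.98 and 3.91 in PA HB, 0.95, 1.52 and 0.38 in CT HB, and 0.98, 2.55 and 1.38 in IVV HB. It was 3.65-fold higher in PA HB than IVV HB (limma adjusted p = 0.02), as 4.34% of all genes were at both thresholds. In CT HB it was 5.87-fold lower than in PA HB (adjusted p = 0.0063), as 4.83% of all genes were. In CT HB over IVV HB none of the 20 was changed by limma, and 1 had an unadjusted p below 0.05, against 11% of all genes.

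Of 29 measured genes of the Toll-like receptor and NF-kappaB pathway, *NFKBIA* and *NKRF*, both inhibitors of NF-kappaB, changed in opposite directions. Among all genes 7.71% were changed in PA HB over IVV HB and 7.78% in CT HB over PA HB. *NFKBIA*, which holds NF-kappaB in the cytoplasm, stood at 1.03, 2.86 and 2.55 in PA HB, -0.37, -0.16 and -1.06 in CT HB, and -0.11, 0.53 and 0.53 in IVV HB. It was 3.56-fold higher in PA HB than IVV HB (limma adjusted p = 0.017) and 6.4-fold lower in CT HB than PA HB (adjusted p = 0.0048). *NKRF*, a nuclear repressor of NF-kappaB targets, averaged -1.46 ± 0.12 in PA HB, -0.07 ± 0.63 in CT HB and -0.05 ± 0.51 in IVV HB. It was 2.67-fold lower in PA HB than IVV HB (adjusted p = 0.015) and 2.64-fold higher in CT HB than PA HB (adjusted p = 0.014).

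Of 27 measured interleukins, interferons and their receptors, 2 were higher in PA HB than IVV HB (4.34% of all genes). In CT HB against PA HB 3 were lower (4.83% of all genes). *MIF*, a cytokine that restrains macrophage migration, stood at 2.37, 2.55 and 2.35 in PA HB, 1.24, 1.55 and 1.46 in CT HB, and -0.49, 0.69 and 1.08 in IVV HB, so that no groups overlapped. Both PA HB and CT HB lay above IVV HB without overlap for 3.1% of all genes, and the share with PA HB also above CT HB was not counted. *MIF* was 4-fold higher in PA HB than IVV HB (limma adjusted p = 0.0037), and its 1.99-fold difference in CT HB over IVV HB did not pass (adjusted p = 0.23). *IL12A*, a subunit of IL12, was 4.97-fold higher in PA HB than IVV HB (adjusted p = 0.014) and 8.25-fold lower in CT HB than PA HB (adjusted p = 0.0053). *IL12B*, the subunit shared by IL12 and IL23, averaged -1.13 ± 0.18 in CT HB and 1.06 ± 0.75 in PA HB (4.58-fold lower in CT HB, adjusted p = 0.0048). On the IVV HB arrays it stood between them, at -0.24, 0.44 and -0.02. *IFNG*, the gene of interferon gamma, which porcine trophectoderm secretes around implantation, averaged -2.75 ± 0.40 in CT HB and -1.62 ± 0.39 in PA HB (2.19-fold lower in CT HB, adjusted p = 0.016). On the IVV HB arrays it stood at -2.93, -2.36 and -2.33, which overlapped CT HB. PA HB exceeded IVV HB by 0.92 (adjusted p = 0.04), short of the 2-fold threshold.

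Many of these changes depended on the scaling of the arrays. After quantile normalization none of the 127 genes was changed in PA HB against IVV HB, where 4.22% of all genes were. There 32 of the 127 had an unadjusted p below 0.05 by limma, against 22.8% of all genes. In CT HB against PA HB 6 were changed (4.95% of all genes), 2 higher and 4 lower. Of these, 5 were shared with the 12 in the deposited values: *ITGB1*, *NFKBIA*, *IL12A*, *IL12B* and *IFNG*. After scale normalization, 8 genes were changed in PA HB against IVV HB (6.82% of all genes), 7 higher and 1 lower. *MIF* was the only one shared with the 10. In CT HB against PA HB, 11 were changed after scale normalization (6.98% of all genes), all lower, and 8 were shared. *MIF* was also the one gene of the 10 that passed in PA HB over IVV HB without each array in turn, and its adjusted p after quantile normalization was 0.086. Without IVV HB replicate 1 it was the only one left of the 10.

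**Figure D4:**
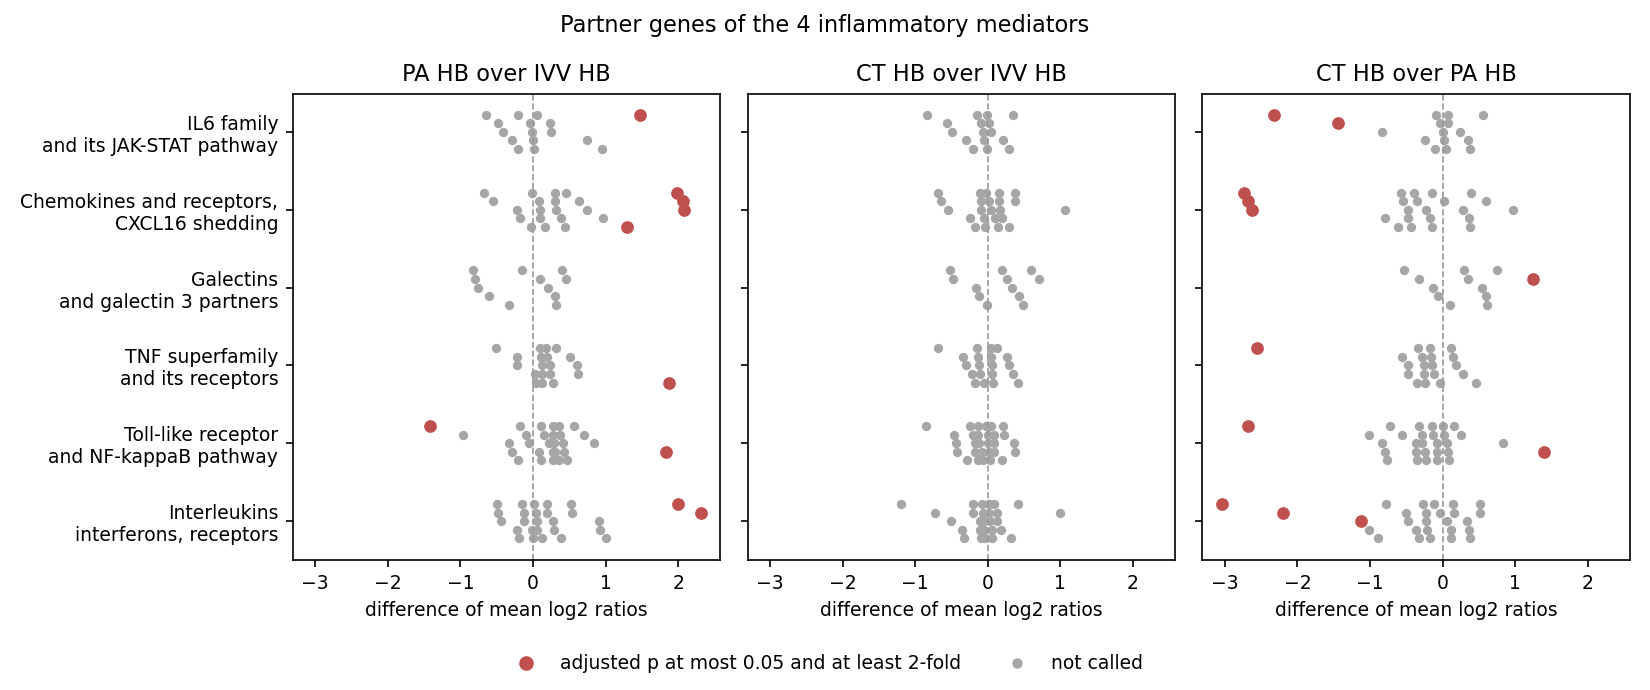
Difference of mean log2 ratios (x axis) of the measured genes of each of the 6 lists (y axis) in PA HB over IVV HB, CT HB over IVV HB and CT HB over PA HB, with 1 point per gene and red points for those past both thresholds. Red points number 10 in PA HB over IVV HB, 0 in CT HB over IVV HB and 12 in CT HB over PA HB, and points are spread vertically within a list only for legibility.

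The profiles of the 4 genes over the arrays were compared with those of all other named genes by Pearson correlation over the 9 arrays, which share a group structure, a reference pool and 3 arrays per group. *IL6* was nearest to *DDX46* (r = 0.946), a splicing helicase, *DFFA* (0.944), the inhibitor of the caspase-activated nuclease, *MORF4L1* (0.941), *PPIC* (0.915) and *CBFA2T2* (0.91). *PPIC*, a cyclophilin, averaged -0.04 in PA HB, 1.81 in CT HB and -1.10 in IVV HB, the same order as *IL6*. *CXCL16* was nearest to the nuclear receptor *NR4A3* (0.953), *NPC2* (0.944), a cholesterol carrier of lysosomes, *EPB41L4A* (0.941), *RPS27L* (0.928) and *NRGN* (0.919). *LGALS3* was nearest to *ITM2B* (0.983), *RPS26* (0.976), *CD63* (0.947), a tetraspanin of late endosomes, *UBE2V1* (0.946) and *S100A10* (0.935), the partner of annexin A2. *S100A10* averaged 0.92 in PA HB, 2.10 in CT HB and 0.29 in IVV HB. *CD70* was nearest to *NARS* (0.993), the asparaginyl-tRNA synthetase, *ECHDC1* (0.975), *GPX3* (0.971), a secreted glutathione peroxidase, *GLUL* (0.965), the glutamine synthetase, and *PNPLA2* (0.959), a triglyceride lipase. *NARS* averaged 2.97 in PA HB, 2.36 in CT HB and 1.02 in IVV HB. No gene was among the 5 nearest of more than 1 of the 4.

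*IL6*, *CXCL16* and *LGALS3* had few close neighbours and *CD70* somewhat more, and 8 of the changed genes of their families had over 100 each. A correlation of at least 0.95 was reached by 0 genes for *IL6*, 1 for *CXCL16*, 2 for *LGALS3* and 8 for *CD70*, where the median over all genes was 1 and the upper quartile 3. For *IL12A* it was 191, for *AMCF-II* 188, for *CXCR4* 186, for *TNFRSF9* 183, for *CCR1* 167, for *IL27RA* 151, for *NFKBIA* 111 and for *IL11* 109. These 8 genes thus followed a profile shared with over 100 other genes, which was high in PA HB and, within IVV HB, highest on replicate 2 (for *NFKBIA*, equal on replicates 2 and 3). *CCL22* had 0 such neighbours, *IFNG* 4, *MIF* 8, *NKRF* 10, *ITGB1* 11 and *IL12B* 50. The part of this shared profile in the changes of the families was not tested.

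Markers of leukocytes and macrophages, which make these mediators in many tissues, moved in part with *IL6* and *CD70*. Of 25 listed markers 11 were measured, and the list was chosen with earlier results of these 9 arrays known. The p-values of *AIF1* and *INPP5D* given next are therefore no independent support. These 2 were higher than IVV HB at both thresholds in PA HB (4.34% of all genes) and in CT HB (0.574% of all genes). *AIF1*, a calcium-binding protein of macrophages, stood at 4.25, 5.18 and 4.32 in PA HB, 4.93, 5.35 and 5.24 in CT HB, and 0.15, 0.45 and -0.03 in IVV HB, which was 21-fold higher in PA HB and 31.6-fold higher in CT HB than IVV HB (limma adjusted p of 1e-05 and 2.6e-06). *INPP5D*, a phosphatase of blood cells, was 4.37-fold higher in PA HB and 5.32-fold higher in CT HB than IVV HB (adjusted p of 0.0023 and 0.0033). The other 9 were not changed by limma in any comparison, with 1 at an unadjusted p below 0.05 in PA HB over IVV HB (28.8% of all genes), 1 in CT HB over IVV HB (11%) and 2 in CT HB over PA HB (28.3%). Among them *PTPRC* (CD45), the pan-leukocyte antigen, averaged 0.40 ± 0.14 in PA HB, 0.17 ± 0.29 in CT HB and 0.21 ± 0.08 in IVV HB. Summed over the 11 markers, log2 ratios ranged from 4.7 to 9.62 on the PA HB arrays, from 7.57 to 10.12 on those of CT HB and from -0.62 to 0.63 on those of IVV HB. In PA HB and CT HB most of the sum came from *AIF1* and *INPP5D*, since the other 9 markers summed to between -0.74 and 2.28 in PA HB, 0.58 and 2.6 in CT HB and -0.44 and 0.72 in IVV HB. Medians over the 11 ranged from 0.26 to 0.45 in PA HB, 0.15 to 0.40 in CT HB and -0.01 to 0.17 in IVV HB. No defining marker can be called absent, since ratios to the reference do not give a level. The part of such cells in the differences of the 4 genes was not tested.

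Markers of the embryo itself gave the following values, and their lists were also chosen with earlier results of the same arrays known. Their p-values are therefore no independent support. Of 17 trophectoderm markers 14 were measured, with array medians between 0.08 and 0.33 in PA HB, 0.15 and 0.32 in CT HB and 0.09 and 0.47 in IVV HB. In PA HB over IVV HB the trophectoderm keratins *KRT8* (2.13-fold higher, limma adjusted p = 0.02) and *KRT18* (2.18-fold lower, adjusted p = 0.0069) changed in opposite directions. Among all genes 4.34% were higher and 3.38% lower in this comparison. The study's QPCR found both keratins lower in PA HB than IVV HB, so that only *KRT8* differed from it in direction. For *KRT18* the study's microarray analysis also reported a lower level in PA HB. Calls in the marker lists were not repeated under other normalizations. Of 6 measured hypoblast markers *GATA6* was the one changed gene. It was 4.16-fold higher in PA HB than IVV HB (adjusted p = 0.0017), as 4.34% of all genes were at both thresholds. In CT HB it was 2.93-fold lower than in PA HB (adjusted p = 0.0054), as 4.83% of all genes were. The hypoblast list as a whole did not follow *GATA6*. In PA HB over IVV HB only 2 of the 6 differences were above 0, and their median was -0.16. Of 6 measured fibroblast markers *VIM* was the one changed gene. It was 2.32-fold higher in PA HB than IVV HB (adjusted p = 0.02, 4.34% of all genes). In CT HB it was 2.01-fold lower than in PA HB (adjusted p = 0.038, 4.83% of all genes). The median difference of the fibroblast list was only 0.05 in PA HB over IVV HB and -0.02 in CT HB over PA HB. None of 6 measured markers of inner cell mass and epiblast was changed, and 1 in PA HB over IVV HB (28.8% of all genes), 2 in CT HB over IVV HB (11%) and 1 in CT HB over PA HB (28.3%) had an unadjusted p below 0.05 by limma. Of 17 measured oocyte markers 7 were higher in PA HB than IVV HB (4.34% of all genes) and 11 lower in CT HB than PA HB (4.83%). Array medians of the list lay between -2.06 and -1.26 in PA HB, -2.66 and -2.32 in CT HB and -2.82 and -2.10 in IVV HB. The part of these cell types in the values of the 4 genes was not tested.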

How the data were processed

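For 23971 probes the authors deposited the log2 of embryo over reference signal, as far as dyes and values tell. They scanned the arrays, subtracted background and applied global loess within each array, with no scaling between arrays stated. Direction follows the dyes, which were not swapped. On every array the median of the 17 oocyte markers, whose transcripts the reference pool holds, lay below 0. Without spot intensities, probes near background were not filtered.

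The platform annotation named 10344 probes (43.2%). Of 2748 accessions 1567 matched the RefSeq table of Sscrofa11.1, from which only names were taken, and 200 probes took a current symbol. Probes of a gene were averaged, giving 7495 genes. A model of group means over all 9 arrays was fitted in limma 3.58.1 (R 4.3.3), two-sided, with Benjamini-Hochberg adjustment over all genes, and changed genes had an adjusted p no higher than 0.05 and a 2-fold or larger difference, as in the study's methods. The fit was tested on simulated data.

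The 4 genes and all lists were chosen with earlier results of these data known. Named were the 4 genes, their receptors and sheddases, every changed gene of a family or marker list, except oocyte markers, which are given as counts, and the 5 most correlated genes. The methods call the 3 pools per group biological replicates, but whether they came from separate collections is not stated, and p-values measure only how these pools vary. Alternatives were quantile, scale and median normalization between arrays, the median of probes, the replicate number as a block, fits per probe or of 6 arrays, a robust prior, a fit without the 25% of genes that varied least, the adjusted p alone, and each array left out. Other background corrections and a filter on dim spots could not be run on processed ratios.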

Additional observations from a re-analysis of the deposited data

How the results depend on the processing

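Quantile normalization gave *CD70* 1.72 in PA HB over IVV HB, and in CT HB over IVV HB it gave 2.75 for *IL6*, 2.26 for *CXCL16* and 2.20 for *CD70*. In CT HB over PA HB it gave 1.41 for *IL6* and turned *CD70* to 0.48. Changed genes of the 6 families then numbered 0 in PA HB over IVV HB (4.22% of all genes) and 2 in CT HB over IVV HB (1.73%). In CT HB over PA HB they numbered 6 (4.95%). The deposited values gave 10, 0 and 12 (7.71%, 0.654% and 7.78% of all genes). The 2 in CT HB over IVV HB were *CCL22*, higher in CT HB, and *IL12B*, lower in CT HB. Scale normalization gave *LGALS3* 1.36 in PA HB over IVV HB and 0.96 in CT HB over PA HB, and *CD70* -0.18 in CT HB over PA HB. It gave 1 changed family gene in CT HB over IVV HB (1.4% of all genes). A fit of the 6 arrays compared gave 2 there, and the adjusted p alone gave 18 in PA HB over IVV HB. For that fit and the adjusted p alone, shares of all genes were not counted. The cause of these shifts was not tested, apart from the fold threshold dropped with the adjusted p alone.

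With each array left out in turn, *IL6* ranged from 1.07 to 1.53 in PA HB over IVV HB, 1.92 to 2.37 in CT HB over IVV HB and 0.75 to 1.00 in CT HB over PA HB, *CXCL16* from -0.15 to 0.65, 1.69 to 2.11 and 1.22 to 2.02, *LGALS3* from 0.19 to 0.85, 1.56 to 2.21 and 1.19 to 1.45, and *CD70* from 2.14 to 2.70, 1.24 to 1.81 and -1.14 to -0.71. Only *CXCL16* in PA HB over IVV HB changed sign, to -0.15 without PA HB replicate 2. Family genes numbered 1 to 15 in PA HB over IVV HB (1 without IVV HB replicate 1, 3 without PA HB replicate 2, 4 without PA HB replicate 3 and 4 without IVV HB replicate 3), 0 to 1 in CT HB over IVV HB and 10 to 17 in CT HB over PA HB. Shares of all genes were not counted in the fits with an array left out, and nothing is read from these counts about the families.

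Under a replicate block, family genes numbered 11, 0 and 14 (shares of all genes not counted) and the differences of the 4 genes were the same. Deviations of same-numbered arrays from their group means correlated between -0.15 and 0.31, and 5 of 9 arrays correlated best with their own number. These values do not decide whether the numbers pair the pools. With 3 pools per group, 1 probe per gene and no intensities, a weak spot cannot be told from a low ratio.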
